A study of Mus musculus with 4 samples.

Results

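The genes described here were 10 transcription factors of the activator protein 1 (AP-1) and immediate early group, namely Fos, Fosb, Fosl1, Fosl2, Jun, Junb, Jund, Egr1, Atf3 and Maff. They were chosen by name, as the genes of the deposited count table with these symbols. The members and the further gene lists were proposed with earlier results of these data known. Their counts, set beside shares of all tested genes, are therefore descriptions only. The table held 54532 genes and all 10 members were found in it. Of the table, 13233 genes had a mean of at least 1 CPM (the count divided by the TMM-scaled size of its library, on the usual per-million basis) over the libraries, and 10 of the 10 members passed this filter.

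The study asked how depletion of DNMT1, the maintenance methyltransferase of mammalian DNA, alters mesenchymal stem cells (MSCs) before and during early osteoblast (OB) differentiation. mRNA was sequenced from C3H10T1/2 cells, 1 established mouse line derived from embryos that can be driven towards bone, cartilage, fat and muscle. There were 4 groups with 1 library each, named as in the labels. The control group received control siRNA and the siDNMT1 group received DNMT1 siRNA, both by transfection for 48 h and with no induction. The OB group received control siRNA and the siDNMT1_OB group received DNMT1 siRNA, and both were then induced for 3 days with dexamethasone (a synthetic glucocorticoid), 10 mM glycerophosphate and 50 µM ascorbic acid. All 4 groups therefore carried an siRNA, and there was no group without transfection. The labels list no group kept for the added 3 days without induction. Induction and the longer time in culture and since transfection therefore cannot be told apart. Differences ascribed to induction below include both. No difference between groups had a replicate check, and no pair of libraries could be tested for a difference between conditions. Fewer cells of a type and less RNA per cell cannot be told apart in such bulk samples.

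AP-1 is a dimer of basic leucine zipper (bZIP) proteins. JUN proteins pair with each other or with FOS proteins, whereas FOS proteins need a JUN partner to bind DNA, and ATF3 and the small MAF protein MAFF can join the same network through their zippers. Most of these genes are immediate early genes: they are transcribed within minutes of serum, growth factors, stress or mechanical load, through MAP kinases, the serum response factor (SRF) and factors that bind cAMP response elements. In bone, FOS and FOSL1 are known regulators of osteoclasts and osteoblasts, JUNB of bone formation, and ligand-bound glucocorticoid receptor is known to oppose AP-1 activity at many genes.

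The libraries held between 22296046 (OB) and 27367792 (control) counts, and mitochondrial genes held between 2.53% and 2.83% of them. Dnmt1, measured as a check of the labels, was at 265 CPM for control, 132 for siDNMT1, 85.4 for OB and 93.1 for the library labelled siDNMT1_OB. Dnmt1 was thus lower with its siRNA before induction (log2 fold change −1.01) and was not lower with it after induction (0.13), so the last group is called the library labelled siDNMT1_OB throughout. The 10 mesenchymal markers summed to between 26165 and 32412 CPM. Of the osteoblast markers, Alpl had at most 2 counts, Bglap at most 3, Sp7 at most 8 and Ibsp at most 17 in any library, so these 4 were nearly absent from both induced libraries. The other 2 on the list were abundant: Runx2 had between 1644 and 2459 counts, and Spp1, which other cell types also make, had 14862 (control), 5270 (siDNMT1), 4226 (OB) and 7261 counts (the library labelled siDNMT1_OB), with its highest level in control. Markers of other lineages were low: 5 epithelial markers summed to at most 1.11 CPM, 4 haematopoietic markers to at most 3.27 CPM and 4 endothelial markers to at most 7.81 CPM, of which Tek was higher in siDNMT1 than in control (1.62) and in the library labelled siDNMT1_OB against OB (1.42).

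The promoters of the members are shown because immediate early genes are known to be switched on through them. Sequences and start sites are those of RefSeq on GRCm38.p6, and all members but Egr1 and Fosl1 had an entry, 8 in all, with 10 windows of 250 bases before to 50 bases after a start site. The Jund window (chr8:70697489-70697788) lies wholly before the Jund gene of the deposited table, which starts at 70698949. For Fosl2, all 120 bases before the start site are exon in the deposited table. Each window was searched on both strands for TGANTCA (the AP-1 site), TGACNTCA (a site like the cAMP response element, CRE), GCGNGGGCG (the site of EGR proteins) and the CArG box of SRF. TGANTCA and TGACNTCA differ in length and do not match the same bases. Printed below are the 120 bases before the start site, 5′ to 3′ on the strand of the gene, with matches in capitals. The Fos window lies at chr12:85473770-85473889 on the plus strand, Jun at chr4:95052223-95052342 on the minus strand, and Junb at chr8:84978749-84978868 on the minus strand. Fosb lies at chr7:19310046-19310165 on the minus strand. The Maff window with an EGR and a CRE-like match lies at chr15:79347400-79347519 on the plus strand. Fos and Junb are shown as windows without a match, Jun for its CRE-like site, Fosb for its EGR site, and Maff for holding both.
Fos: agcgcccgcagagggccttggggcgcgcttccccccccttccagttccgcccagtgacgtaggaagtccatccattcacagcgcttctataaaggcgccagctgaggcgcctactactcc
Jun: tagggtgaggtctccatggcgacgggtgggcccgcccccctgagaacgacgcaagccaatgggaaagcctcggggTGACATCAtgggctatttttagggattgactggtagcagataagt
Junb: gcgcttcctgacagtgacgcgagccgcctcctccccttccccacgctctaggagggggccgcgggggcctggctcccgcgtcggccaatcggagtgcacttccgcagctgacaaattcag
Fosb: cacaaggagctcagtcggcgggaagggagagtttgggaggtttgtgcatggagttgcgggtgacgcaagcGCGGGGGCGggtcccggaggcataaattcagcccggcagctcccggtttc
Maff: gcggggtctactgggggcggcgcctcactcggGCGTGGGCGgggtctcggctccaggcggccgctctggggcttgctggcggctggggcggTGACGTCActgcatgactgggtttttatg

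The CRE-like letters were found in 3 of the 10 member windows, once in Jun and in 2 of the windows of Maff, and in 8.83% of all 32851 promoter windows. In Jun the site begins 45 bases before the start, and in the Maff window printed above it begins 29 bases before the start. The EGR site was found in 3 windows (Fosb, Fosl2 and Maff), against 5.55% of all windows, and begins 50 bases before the start in Fosb. The AP-1 site was in 0 member windows (7.81% of all windows) and the CArG box in 0 (1.63%), which says only that these letters are not in these windows. The same holds for Fos and Junb, printed as windows without a match, since variants of the sites were not sought.

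Most members had their lowest level in the OB library. This held for 8 of the 10, where 32.2% of all tested genes were lowest in OB, the exceptions being Fosb, lowest in control, and Fosl2, lowest in the library labelled siDNMT1_OB. The widest range was that of Egr1, whose highest library had 9.13 times the CPM of its lowest, and the narrowest was that of Fosl2, at 1.31 times. The plot of CPM by library shows these levels with their counting intervals.

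**Figure D1:**
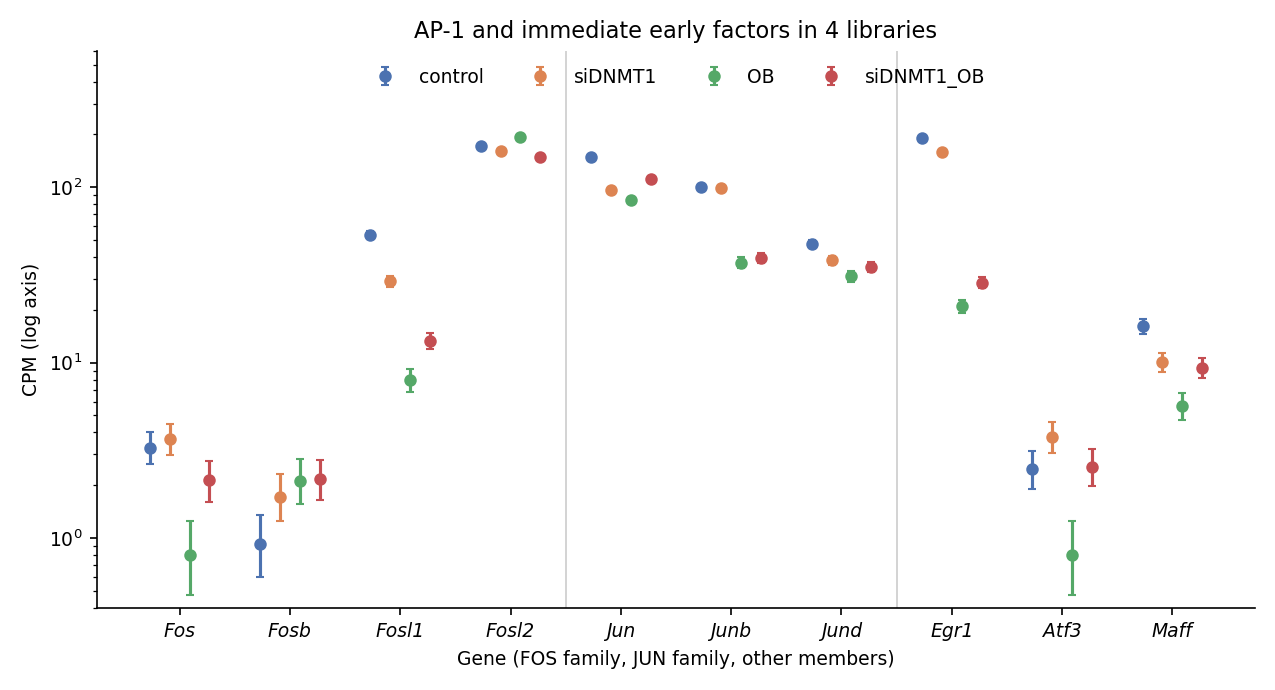
Level of each member in the 4 libraries, in CPM on a log axis, with 1 point per library and bars for the exact Poisson 95% interval of the count (counting error only). The OB points of Fosl1, Junb and Egr1 lie far below their control points, whereas the points of Fosl2 stay within 148 to 194 CPM.

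To compare levels between genes, counts were divided by the deposited gene length and scaled to a common total (TPM, the length-scaled form of CPM). On this scale the FOS family summed to 144 TPM for control, 107 for siDNMT1, 78.5 for OB and 74.6 for the library labelled siDNMT1_OB. The JUN family summed to 341, 290, 190 and 224 TPM in the same order. JUN family transcripts outnumbered FOS family transcripts in every library: the FOS family made up 29.8% of the sum of both families for control, 26.9% for siDNMT1, 29.3% for OB and 24.9% for the library labelled siDNMT1_OB. Without the division by length, which weights the long Fosl2 transcript more, the share was 43.5% for control and 57.3% for OB, so the order of the families in OB holds only per length.

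Within the FOS family the main transcript per length was Fosl1 in control and Fosl2 in both induced libraries. Fosl1 made up 18.4% of the sum of both families in control and Fosl2 10.4%, and they were close in siDNMT1 (12.9% and 12.6%). In OB, Fosl1 made up 5.37% and Fosl2 23.1%. Without the division by length Fosl2 held the larger share in all 4 libraries, with 32.5% against 10.1% for Fosl1 in control. Fos and Fosb together stayed minor, with Fos at or below 1.18% and Fosb at or below 0.39% in each of the 4 libraries. Among the JUN genes, Junb went from 25.8% in control to 18.6% in OB, while Jun made up 27.5% and 30.6% and Jund 16.9% and 21.5%.

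**Figure D2:**
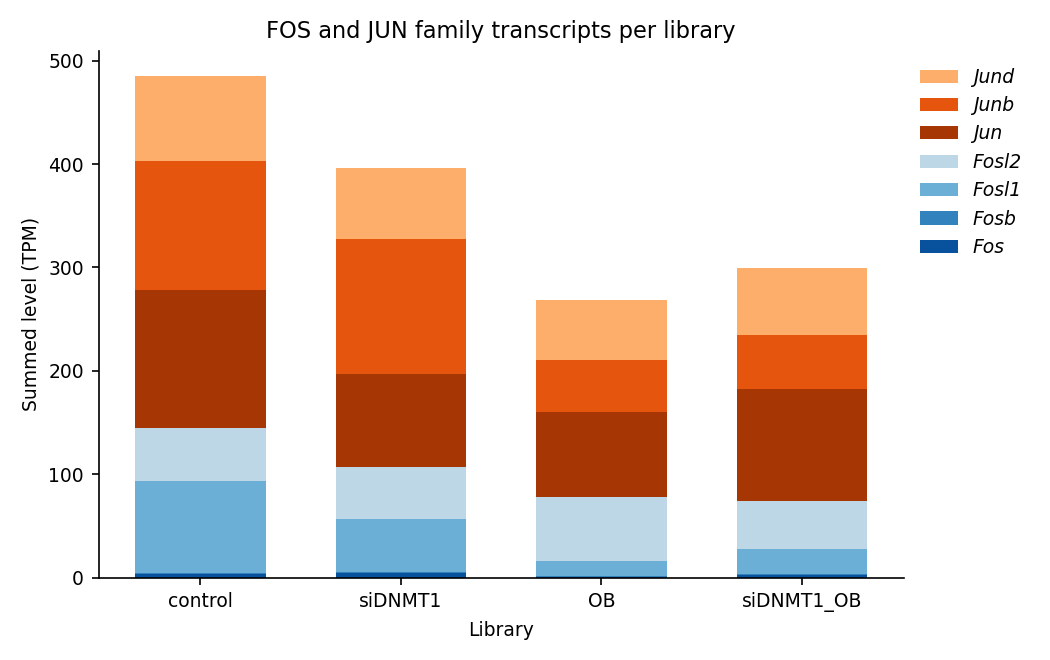
Summed level of the FOS genes (blue) and JUN genes (orange) in each library, in TPM, stacked by gene from 0. The FOS family sum was 144 TPM in control and 78.5 TPM in OB, and the JUN family sum 341 and 190 TPM, with Fosl1 shrinking from 89.4 to 14.4 TPM.

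OB induction with control siRNA was the comparison in which the members differed most. Of the 10 members, 6 were at least 1 log2 unit lower in OB than in control (Egr1, Fosl1, Fos, Atf3, Maff and Junb), where 7.1% of all 13233 tested genes were. Only Fosb of the 10 was at least 1 log2 unit higher, where 10.6% of all tested genes were. The median log2 fold change of the members was −1.46, beside 0.01 over all genes tested. Intervals given below are 95% intervals of the read counts. The reads carried no molecular identifiers, so these intervals reflect counting error and leave out any variation from culture to culture.

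Fosl1 (ENSMUSG00000024912, chromosome 19, 5447703 to 5455945, plus strand, GRCm38) encodes FRA-1, a FOS protein without the strong activation domain of FOS, known to promote bone matrix formation. It had 1443 (control), 744 (siDNMT1), 180 (OB) and 354 counts (the library labelled siDNMT1_OB), which is 53.2, 29.0, 7.96 and 13.2 CPM. Each of the 4 counting intervals was apart from its neighbours, with control highest and OB lowest. Fosl1 was 6.63-fold lower in OB than in control (log2 fold change −2.73, interval −2.97 to −2.52). It was 2.19-fold lower in the library labelled siDNMT1_OB, set against siDNMT1 (−1.13, −1.32 to −0.95). Its span in the table differed from that in GENCODE M21, unlike those of the other 9 members.

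Fos (ENSMUSG00000021250, chromosome 12, 85473890 to 85477273, plus strand), the founding member and a classic marker of recent stimulation, had low counts, namely 89 (control), 94 (siDNMT1), 18 (OB) and 57 counts (the library labelled siDNMT1_OB). This is 3.28, 3.67, 0.796 and 2.13 CPM. The counting intervals of control and siDNMT1 overlapped, and that of OB lay below the other 3. Fos was 3.84-fold lower in OB than in control (log2 fold change −1.94, interval −2.86 to −1.30), and −0.76 (−1.29 to −0.29) separated the library labelled siDNMT1_OB from siDNMT1.

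Fosb (ENSMUSG00000003545, chromosome 7, 19302696 to 19310051, minus strand), whose splice form ΔFosB is known to raise bone mass when overexpressed in mice, had the lowest mean level per length of the 10. It had 25 (control), 44 (siDNMT1), 48 (OB) and 58 counts (the library labelled siDNMT1_OB). Control lay below the other 3 libraries, which did not differ from their neighbours in order beyond counting error. The log2 fold change of OB against control was 1.14 (interval 0.48 to 1.96), and that of the library labelled siDNMT1_OB against siDNMT1 was 0.32 (−0.25 to 0.94). Counts per gene do not separate the splice forms.

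Fosl2 (ENSMUSG00000029135, chromosome 5, 32135801 to 32157842, plus strand) encodes FRA-2, which is known to act in osteoblasts and chondrocytes. Its 4633 (control), 4122 (siDNMT1), 4393 (OB) and 3965 counts (the library labelled siDNMT1_OB) gave it the narrowest range of the 10. The level was highest in OB, at 194 CPM, and lowest in the library labelled siDNMT1_OB, at 148 CPM. The log2 fold change of OB against control was 0.19 (interval 0.13 to 0.25), under the threshold. Per length, Fosl2 was below Fosl1 in control (50.6 against 89.4 TPM) and above it in OB (62.0 against 14.4 TPM).

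The JUN genes were less variable than Fosl1. Junb (ENSMUSG00000052837, chromosome 8, 84974484 to 84978718, minus strand), which antagonises JUN at some promoters, had 2726 (control), 2542 (siDNMT1), 841 (OB) and 1056 counts (the library labelled siDNMT1_OB). The values in CPM were 101, 99.2, 37.2 and 39.5. The libraries thus fell into a pair without and a pair with induction, and within each pair the counting intervals overlapped. Induction separated them by −1.43 (interval −1.55 to −1.32) in OB against control and by −1.33 (−1.44 to −1.23) in the library labelled siDNMT1_OB against siDNMT1 on the log2 scale, the closest match of these comparisons among the members past the threshold. Junb shares 173 exon bases with Prdx2 on the opposite strand, which had between 3800 and 4784 counts. As strand use in counting was not given in the sources used here, some of the reads could belong to either gene.

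Jun (ENSMUSG00000052684, chromosome 4, 95049034 to 95052222, minus strand, 1 exon), the partner of most FOS dimers and an activator of its own promoter, had 4028 (control), 2466 (siDNMT1), 1914 (OB) and 2989 counts (the library labelled siDNMT1_OB). In CPM these were 149, 96.3, 84.6 and 112. Unlike Junb, Jun differed in the order of the middle libraries, since the library labelled siDNMT1_OB ranked above siDNMT1. Jun was lower in OB than in control by −0.81 (interval −0.89 to −0.73) and 0.21 (0.14 to 0.29) higher in the library labelled siDNMT1_OB, set against siDNMT1, and neither value reached the threshold. It shares 232 exon bases with Junos on the opposite strand, which had between 48 and 167 counts.

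Jund (ENSMUSG00000071076, chromosome 8, 70698949 to 70700616, plus strand, 1 exon) is the JUN gene with the steadiest expression in resting cells and is held to slow proliferation. It had 1292 (control), 982 (siDNMT1), 704 (OB) and 935 counts (the library labelled siDNMT1_OB). Its range was the narrowest of the JUN genes, from 31.1 to 47.6 CPM. The log2 fold change was −0.61 (interval −0.75 to −0.48) in OB against control and −0.13 (−0.26 to −0.0029) in the library labelled siDNMT1_OB against siDNMT1, both under the threshold. Jund shares 877 of its 1668 exon bases with Gm11175 on the opposite strand, to which 0 counts were assigned in all 4 libraries. As for Junb, strand use in counting was not given, and how reads in the shared bases were handled is uncertain. The level of Jund per length, and with it the JUN family sums, could therefore be understated.

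Egr1 (ENSMUSG00000038418, chromosome 18, 34859823 to 34864984, plus strand), a zinc finger factor induced through SRF by growth factors and load, had the largest difference of the 10. It had 5179 (control), 4081 (siDNMT1), 473 (OB) and 765 counts (the library labelled siDNMT1_OB), or 191, 159, 20.9 and 28.6 CPM. Both induced libraries lay far below both libraries without induction. Egr1 was 9.10-fold lower in OB than in control (log2 fold change −3.19, interval −3.33 to −3.05) and 5.56-fold lower in the library labelled siDNMT1_OB, set against siDNMT1 (−2.47, −2.59 to −2.37). Per length, Egr1 had 122 TPM in control, near Jun at 134 and Junb at 125, and 14.4 TPM in OB, where Jun had 82.0 and Junb 50.0.

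Atf3 (ENSMUSG00000026628, chromosome 1, 191170296 to 191218039, minus strand), a stress-induced repressor that pairs with JUN proteins, had 67 (control), 96 (siDNMT1), 18 (OB) and 68 counts (the library labelled siDNMT1_OB). OB stood below the other 3 libraries. The log2 fold change of OB against control was −1.54 (interval −2.47 to −0.87), and that of the library labelled siDNMT1_OB against siDNMT1 was −0.55 (−1.03 to −0.10). Maff (ENSMUSG00000042622, chromosome 15, 79346621 to 79359076, plus strand), a small MAF protein without an activation domain of its own, had 437, 258, 128 and 250 counts in control, siDNMT1, OB and the library labelled siDNMT1_OB. It too was lowest in OB, and siDNMT1 and the library labelled siDNMT1_OB did not differ beyond counting error. It was 2.82-fold lower in OB than in control (interval of the log2 fold change −1.80 to −1.22), and the log2 fold change of the library labelled siDNMT1_OB against siDNMT1 was −0.11 (−0.37 to 0.15).

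**Figure D3:**
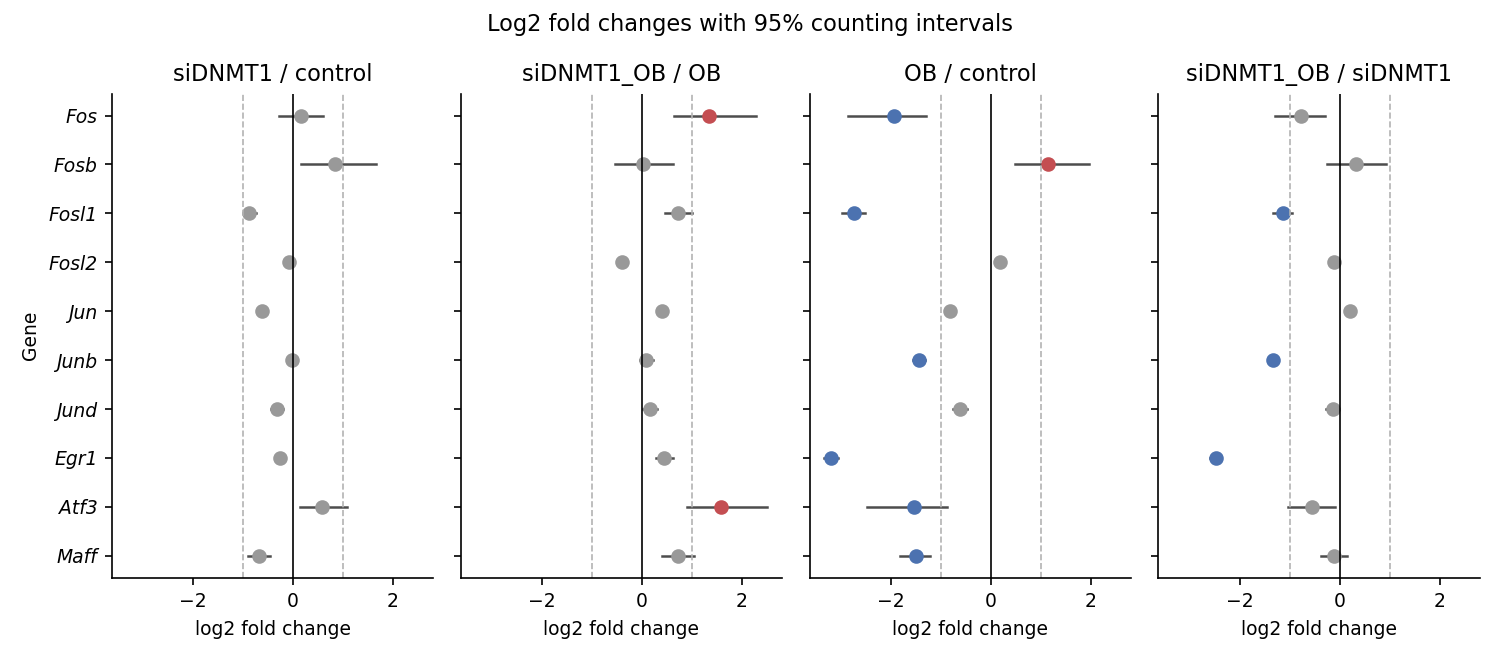
Log2 fold change of each member in the 4 comparisons, with lines for the 95% counting interval, dashed lines at 1 log2 unit, and colour where a member lies at least that far above (red) or below (blue) 0. In OB against control 6 members are blue and 1 is red, in the library labelled siDNMT1_OB against siDNMT1 3 are blue, in the same library against OB 2 are red, and in siDNMT1 against control none is coloured.

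Fewer members passed the threshold between the library labelled siDNMT1_OB and siDNMT1, although Dnmt1 itself was not lower in the former than in OB. Of the 10, 3 were at least 1 log2 unit lower (Egr1, Junb and Fosl1), where 2.71% of all tested genes were, and 0 were higher, where 6.83% were. The median of the members was −0.34. The only test across libraries that this design allows is an additive fit of siRNA and induction over all 4, which leaves 1 residual degree of freedom and treats any difference between both siRNAs in the effect of induction as noise. In this fit (edgeR quasi-likelihood test, two-sided, Benjamini-Hochberg adjusted over all 13233 genes) the effect of induction passed an adjusted p of 0.05 for 21.1% of all tested genes and for 3 members. These were Egr1 (log2 fold change −2.83, adjusted p = 0.00485), Junb (−1.38, adjusted p = 0.00668) and Fosl1 (−1.92, adjusted p = 0.0291), each lower in both induced libraries. Fos (−1.33, adjusted p = 0.0659 in edgeR) and Atf3 (−1.01, adjusted p = 0.105 in edgeR) did not pass.

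All 10 members stayed under the threshold before induction. In siDNMT1 against control, 0 members were at least 1 log2 unit higher, where 1.97% of all tested genes were, and 0 were lower, where 1.37% were. A count of 0 among 10 genes is close to these shares and does not set the members apart. The values nearest the threshold were those of Fosl1 (−0.87, interval −1.003 to −0.74), Fosb (0.84, 0.16 to 1.67), Maff (−0.67, −0.91 to −0.45) and Jun (−0.63, −0.70 to −0.55). Junb (−0.02, −0.10 to 0.06) and Fos (0.16, −0.27 to 0.60) did not differ beyond counting error, and the sign of the Junb value turned with 2 of the library scalings tried.

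After induction the library labelled siDNMT1_OB had higher levels than OB for 9 of the 10 members, against 52.2% of all tested genes, although Dnmt1 itself was not lower there. At least 1 log2 unit was reached by 2 members, where 2.36% of all tested genes were that much higher, and 0 members were that much lower, where 1.37% were. These 2 were Atf3 (1.58, interval 0.91 to 2.51) and Fos (1.34, 0.63 to 2.27), each resting on 18 counts in OB. Fosl1 (0.73, 0.47 to 1.00) and Maff (0.72, 0.41 to 1.04) followed. Egr1 had 0.45 (0.28 to 0.62) and Jun 0.40 (0.32 to 0.48). The lone member that was lower was Fosl2 (−0.39, −0.45 to −0.33), and the values of Junb and Fosb had intervals that included 0. In the additive edgeR fit, the term for the labelled siRNA passed an adjusted p of 0.05 for 0 genes and 0 members, with 1148 genes and 1 member (Atf3, 1.05, adjusted p = 0.504) at an unadjusted p under 0.05.

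Subtracting the fold change of siDNMT1 against control from that of the library labelled siDNMT1_OB against OB gives the same number as subtracting the fold change of OB against control from that of the library labelled siDNMT1_OB against siDNMT1. It rests on all 4 libraries and leaves nothing to test it with. It was at least 1 log2 unit for 4 members, where 3.27% of all tested genes reached this: Fosl1 (1.60, interval 1.31 to 1.89), Maff (1.39, 1.01 to 1.77), Fos (1.18, 0.31 to 2.05) and Jun (1.03, 0.92 to 1.14). It was above 0 for 8 of the 10 members and for 50.6% of all tested genes. Junb, at 0.10 (−0.05 to 0.26), stood apart from Jun in this measure, and Fosb (−0.82, −1.71 to 0.08) and Fosl2 (−0.30, −0.39 to −0.22) were below 0.

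Other immediate early genes were examined next. Of 34 listed, 32 were tested, and 12 of them were at least 1 log2 unit lower in OB than in control and 1 that much higher (7.1% and 10.6% of all tested genes), with a median of −0.53. The lowest were Egr3 (−2.95) and Egr2 (−2.36), relatives of Egr1, and Hbegf (−2.60), a growth factor of the EGF family. The higher gene was Zfp36l1 (2.29), which speeds decay of mRNAs with AU-rich elements. In the library labelled siDNMT1_OB against siDNMT1, 5 were past the threshold below and 2 above (2.71% and 6.83% of all tested genes), the furthest from 0 being Egr2 (−2.21), Egr3 (−2.04), Gadd45a (−1.76) and Sgk1 (1.73). Against OB the same library had a value above 0 for 28 of the 32, beside 52.2% of all tested genes, with a median of 0.40. The threshold was passed by 3 of them (2.36% of all tested genes), namely Arc (1.62), Ctgf (1.59) and Btg2 (1.01). Before induction only Gadd45a (1.15) of this list passed the threshold, beside 1.97% of all tested genes above it and 1.37% below.

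**Figure D4:**
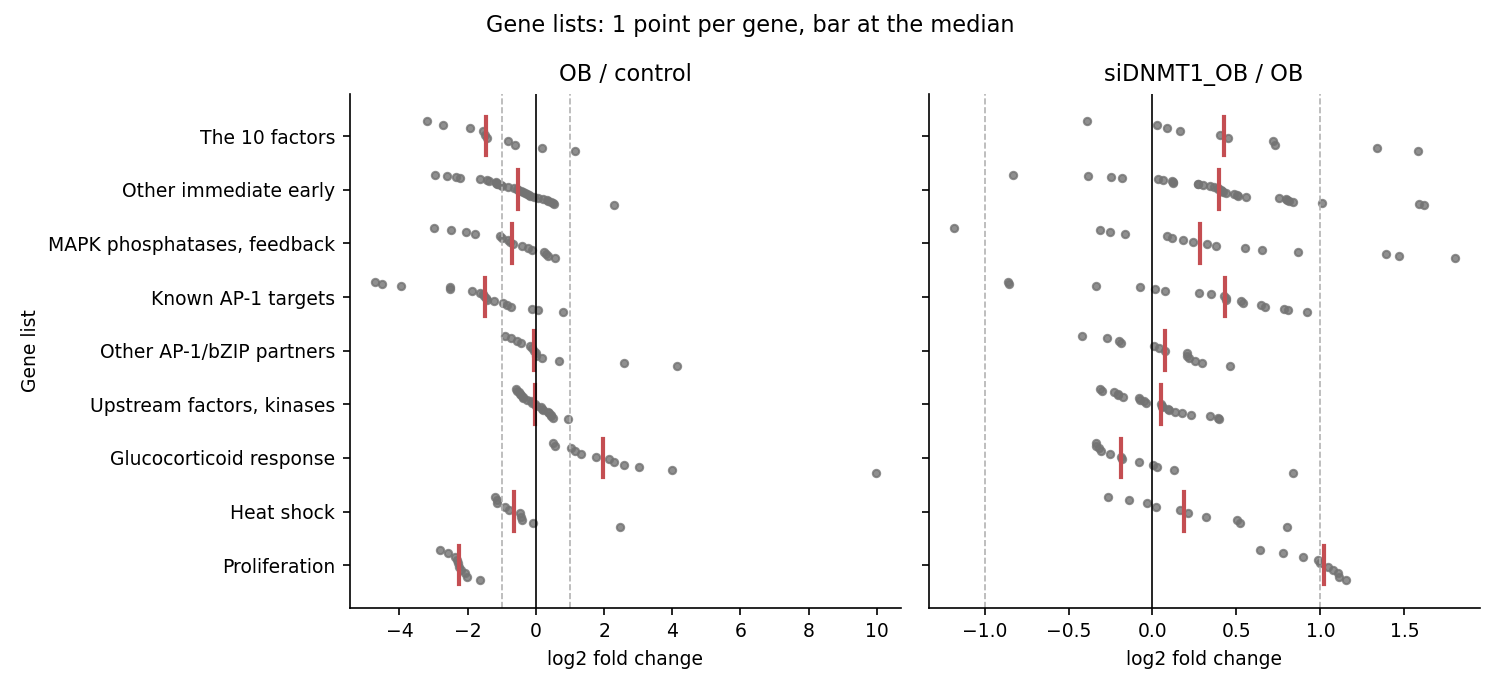
Log2 fold changes of the members and of the further gene lists in OB against control and in the library labelled siDNMT1_OB against OB, with 1 point per gene, a red bar at the median of each list and dashed lines at 1 log2 unit (the horizontal scales differ). The median of the 10 members is −1.46 and 0.42, that of other immediate early genes −0.53 and 0.40, and that of the proliferation genes −2.27 and 1.02.

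MAP kinases and the factors they act on, upstream of this group, lay within the threshold in mRNA. This list, with 21 tested genes, holds Srf, Elk1 and the ERK, JNK and p38 kinases. Of the 21, 0 passed the threshold in any of the 4 comparisons, and the values lay between −0.59 and 0.94. Of all tested genes, 10.6% passed it above and 7.1% below in OB against control. The shares were 6.83% and 2.71% in the library labelled siDNMT1_OB against siDNMT1. They were 1.97% and 1.37% in siDNMT1 against control, and 2.36% and 1.37% in the library labelled siDNMT1_OB against OB. A count of 0 is close to the shares of these last comparisons. Another scaling put 1 of these genes past the threshold in OB against control. MAP kinase phosphatases and feedback inhibitors, which are induced by the same signal that they damp, were past the threshold below in OB against control for 6 of 16 tested and above for 0 (7.1% and 10.6% of all tested genes). Values above 0 were found for 4 of the 16, beside 50.7% of all tested genes, and the median was −0.71. Dusp2 (−2.98), Dusp4 (−2.48), Dusp8 (−2.04) and Dusp5 (−1.77) were the lowest. In the library labelled siDNMT1_OB against siDNMT1, 3 passed it below (Dusp2, −2.08; Dusp8, −1.49; Dusp5, −1.09) and 0 above, beside 2.71% and 6.83% of all tested genes. Before induction, Spry1 (1.39) was above the threshold in siDNMT1 against control and Dusp2 (−1.22) below, beside 1.97% and 1.37% of all tested genes. Between both induced libraries Spry1 (1.80), Spry4 (1.47) and Dusp4 (1.39) passed the threshold above in the library labelled siDNMT1_OB and Dusp10 (−1.18) below, which is 3 and 1 of the 16 beside 2.36% and 1.37% of all tested genes.

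Other bZIP proteins that can pair with the members were read next, and their counts past the threshold lay near the shares of all tested genes. Of 13 tested, 2 passed the threshold above in OB against control and 2 in the library labelled siDNMT1_OB against siDNMT1. This stood beside 10.6% and 6.83% of all tested genes, and 0 passed it below, beside 7.1% and 2.71%. The genes above it were Maf, the large MAF factor (4.15 and 2.91), and Cebpd (2.59 and 2.11). In siDNMT1 against control 0 passed the threshold, beside 1.97% of all tested genes above and 1.37% below, although 1 did under another scaling. In the library labelled siDNMT1_OB against OB 0 passed it, beside 2.36% and 1.37%. Maf had 70 counts in control and 132 in siDNMT1 against 1067 and 1047 in the induced libraries, so it was high where most members were low.

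Genes known as AP-1 targets were read in the same way, as 18 tested of 23 listed. In OB against control 12 of them passed the threshold below and 0 above (7.1% and 10.6% of all tested genes), and the median was −1.48. Values above 0 were found for 2, beside 50.7% of all tested genes. The lowest were Prl2c3 (−4.72), Prl2c2 (−4.50), Il1rl1 (−3.96) and Hmga1 (−2.53). Prl2c2 and Prl2c3, which encode proliferins, are near-identical copies, and how their reads were split is uncertain. In siDNMT1 against control 6 passed the threshold below and 0 above (1.37% and 1.97% of all tested genes), with a median of −0.49. A value above 0 was found for 1, beside 49.7% of all tested genes. The 6 included both proliferin genes (−4.31 and −4.27), Ccl2 (−1.92) and Spp1 (−1.41). In the library labelled siDNMT1_OB against siDNMT1, 5 passed the threshold below (2.71% of all tested genes), led by Il1rl1 (−2.22), Ptgs2 (−1.84), Prl2c3 (−1.31) and Prl2c2 (−1.05), and 0 above. Between both induced libraries 0 passed the threshold (2.36% of all tested genes above and 1.37% below), and 14 of the 18 had a value above 0 in the library labelled siDNMT1_OB, beside 52.2% of all tested genes. Binding was not measured, and many of these genes answer to other factors too.

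Genes of other processes also differed between the libraries. Of 10 proliferation genes 10 passed the threshold below in OB against control (7.1% of all tested genes), with a median of −2.27, led by Mcm5 (−2.80), Mki67 (−2.57), Birc5 (−2.36) and Top2a (−2.31). In the library labelled siDNMT1_OB against OB all 10 had values above 0, beside 52.2% of all tested genes. The threshold was passed by 5 of them (2.36% of all tested genes), among them Mki67 (1.16), Ccnb1 (1.11), Mcm5 (1.11) and Aurkb (1.08). Against siDNMT1 the same library had 6 of them past the threshold below (2.71% of all tested genes), led by Top2a (−1.36), Mki67 (−1.29), Mcm5 (−1.25) and Ccna2 (−1.17). Their summed level was 2420 CPM for control, 2165 for siDNMT1, 507 for OB and 997 for the library labelled siDNMT1_OB. Of 12 glucocorticoid response genes 12 had values above 0, 10 of them past the threshold, in each comparison of induced with uninduced cells. Of all tested genes, 50.7% and 50.1% had values above 0 in these comparisons, and 10.6% and 6.83% passed the threshold above. Zbtb16 had 0 counts in control and siDNMT1, 1780 in OB and 1688 in the library labelled siDNMT1_OB. It was at least 711.6-fold higher in OB than a floor of 3 counts in control. Tsc22d3 had 744 counts in control and 9970 in OB, and Fkbp5 (3.03) and Cebpd (2.59) followed. In the library labelled siDNMT1_OB against siDNMT1, Tsc22d3 (3.95), Fkbp5 (2.74) and Mt2 (2.62) came after Zbtb16. In the other comparisons 0 of the 12 passed the threshold. Beside this, 1.97% of all tested genes passed it above and 1.37% below in siDNMT1 against control. In the library labelled siDNMT1_OB against OB these shares were 2.36% and 1.37%. Of 10 heat shock genes 9 had values below 0 in OB against control, where 50.7% of all tested genes had values above 0. The threshold was passed below by 3 of them, Hsp90aa1 (−1.19), Hspd1 (−1.15) and Dnajb1 (−1.13), beside 7.1% of all tested genes. It was passed above by 1 gene, Hspb1 (2.46), beside 10.6%. Hspb1 (2.30) was also the lone heat shock gene past the threshold in the library labelled siDNMT1_OB against siDNMT1. Of all tested genes, 6.83% passed it above and 2.71% below in that comparison. Their part in the levels of the members was not tested.

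The genes whose pattern over the 4 libraries lay nearest to a member were found by the distance between log2 CPM values centred on their mean. For Fosl1 these were Hbegf (distance 0.19), Hmga1b (0.22) and Arhgdig (0.25). Hbegf had 22.9, 13.5, 3.71 and 5.23 CPM in control, siDNMT1, OB and the library labelled siDNMT1_OB. For Junb they were Cdsn (0.09), H1fx (0.09) and Neurl1a (0.12), and 21 genes lay within 0.25 of it. Egr1 had 0 genes within that distance, the nearest being Dach2 (0.42), Anxa8 (0.43) and N4bp3 (0.44), of which Dach2 had a level in OB, 0.133 CPM, equal to 3 counts. With 4 libraries such likeness is a description only.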

How the data were processed

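Libraries were made from poly(A) RNA with a TruSeq protocol and sequenced from both ends. Per the labels and the submitters' processing notes, the authors used Trimmomatic, HISAT2 and featureCounts and the mm10 build. Versions, use of strand and handling of reads with several positions are not given in the sources used here. The deposited values are raw counts per gene, in whole numbers, for 4 libraries in 4 groups, and 0 columns were left out. Total counts ranged from 22296046 to 27367792, which sets the counting intervals.

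TMM factors (edgeR 4.0.16, R 4.3.3) were computed over the genes whose mean CPM on unscaled library totals reached 1. The 13233 tested genes are those whose mean CPM reached 1 on the TMM-scaled sizes. Log2 fold changes used a prior count of 2 and a threshold of 1, the size threshold of the study. Intervals of fold changes are exact Clopper-Pearson and those of CPM exact Poisson, both at 95%. Intervals of differences between fold changes use Poisson counting error. The scripts were tested on simulated data. Alternatives were total counts, upper quartile, DESeq2 1.42.0 size factors, totals without mitochondrial and the 20 most abundant genes, a prior count of 0.5, other filters (none, mean CPM of at least 5), a 1.5-fold threshold, an added exact binomial test of reads, no length scaling and the additive edgeR fit.

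All members are named, and of each further list, cell type markers apart, the genes past the threshold, at most 4 per comparison by size. Nearest genes (3 each) were sought among protein-coding genes for the member of widest range in the FOS family, the JUN family and the rest. The members and lists were chosen with earlier results of these data known. Positions are those of the deposited table, in which 98.3% of the genes shared with GENCODE M21 (GRCm38) had the same span.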

Additional observations from a re-analysis of the deposited data

Results flagged for a closer look

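For 5 members the fold change of siDNMT1 against control and that of the library labelled siDNMT1_OB against OB had opposite signs, below 0 before induction and above 0 after it, with the counting intervals of both apart from 0, as 7.90% of all tested genes did. The value after induction minus that before was 1.60 for Fosl1, 1.39 for Maff, 1.03 for Jun, 0.71 for Egr1 and 0.48 for Jund, on the log2 scale. Junb had the same signs, but its intervals included 0. For 2 members the fold changes of OB against control and of the library labelled siDNMT1_OB against siDNMT1 had opposite signs by the same rule, as for 3.85% of all tested genes. Jun was below 0 in the first and above 0 in the second, a difference of 1.03 that is the same number as above, and Fosl2 was above 0 in the first and below 0 in the second, a difference of −0.30. With 1 library per group the difference was not tested for any of them, and each value uses the library labelled siDNMT1_OB, in which Dnmt1 was not lower than in OB.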

How the results depend on the processing

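Each of the 10 members' log2 fold changes in 4 comparisons was recomputed under 6 other scalings and prior counts, 240 values in all. Of these, 239 stayed within the counting interval of the reported value, 0 of those past the threshold changed sign, and the largest shift was 0.075. The other value was Fosl2 in OB against control, 0.25 with totals without mitochondrial and the 20 most abundant genes against 0.19. Junb in siDNMT1 against control changed from −0.02 to 0.01 with upper quartile scaling and to 0.02 with those totals. TMM over all genes was chosen after seeing the data. The counts of members past the threshold were the same under these 6, and counts past it in the further lists moved by at most 2 genes across scalings. A 1.5-fold threshold gave 2 members higher and 3 lower in siDNMT1 against control and 4 higher in the library labelled siDNMT1_OB against OB. It gave 8 lower in OB against control and 4 lower in the library labelled siDNMT1_OB against siDNMT1, where 6 and 3 were reported. A mean CPM of at least 5 left 0 members higher in the library labelled siDNMT1_OB against OB. In OB against control it left 0 higher and 4 lower. This filter removes Fos, Fosb and Atf3. Without length scaling the FOS family made up 43.5% of the sum of both families for control, 45.5% for siDNMT1, 57.3% for OB and 47.1% for the library labelled siDNMT1_OB. Depth limits Fos, Fosb and Atf3 most, with as few as 18 counts. Replicates could not be paired across groups because each group held 1 library.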
